A study of Mus musculus with 2 samples.

Results

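The acetylation landscape around Tbx3 was described from H3K27ac ChIP-seq peak lists of mouse hearts at stage E10.5, mid-gestation. Peaks of either list were taken when their midpoint lay in the 250 kb of chromosome 5 from 119950001 to 120200000 (mm9), an interval that holds Tbx3 (gene ID 21386) and both of its flanks. It contained 63 of the 154664 peaks in both lists, namely 53 of 87572 peaks from the atrioventricular canal (AVC) and 10 of 67092 peaks from the chambers. The AVC library came from EGFP-positive sorted cells and the chamber library from Katushka-positive sorted cells, Katushka being a far-red fluorescent protein. Both tissues carried the same FVB/N strain background and the same Katushka+ EGFP+ genotype, so by the labels both reporters were present in both. Each tissue had 1 library, and no difference given here has a replicate check or a test. The interval was proposed because AVC peaks were known to crowd there, so its peak counts, shares and ranks are descriptions of a region chosen on them.

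Tbx3 encodes a T-box transcription factor that acts mainly as a repressor. In the heart it is active in the AVC and the developing conduction system, where it keeps the gene programme of working chamber muscle switched off. The AVC is the slowly conducting segment between atria and ventricles, and the atrioventricular node derives from it. Acetylation of lysine 27 on histone H3 marks active promoters and enhancers, and developmental regulators such as Tbx3 are typically controlled by enhancers spread over long flanks. In the RefSeq gene table for GRCm38, used for names and order only, the nearest protein-coding neighbours of Tbx3 are Med13l, a Mediator kinase module subunit, and Tbx5, a T-box activator of the chamber programme. The position of Tbx3, about 120120000 to 120135000, came with the definition of the interval and not from an mm9 annotation. Distances from its start are therefore approximate, and peaks were tied to the gene by position alone. For the same reason promoters of AVC and chamber marker genes were not examined, and the tissue labels were not checked against markers.

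Acetylated regions called in the AVC crowded around Tbx3, and chamber regions much less so. AVC peaks made up 84.1% of the 63 peaks in the interval, against 54.5% on chromosome 5 and 56.6% over both lists. Their density was 212 peaks per Mb, which was 6.03 times the AVC density on the autosomes. The chamber density was 40.0 peaks per Mb, 1.49 times its autosomal value. AVC peaks covered 27.4 kb, or 10.9% of the interval, and chamber peaks covered 3.87 kb, or 1.55%. Coverage common to both lists was 2281 bp, which was 8.34% of the AVC coverage and 58.9% of the chamber coverage.

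**Figure D1:**
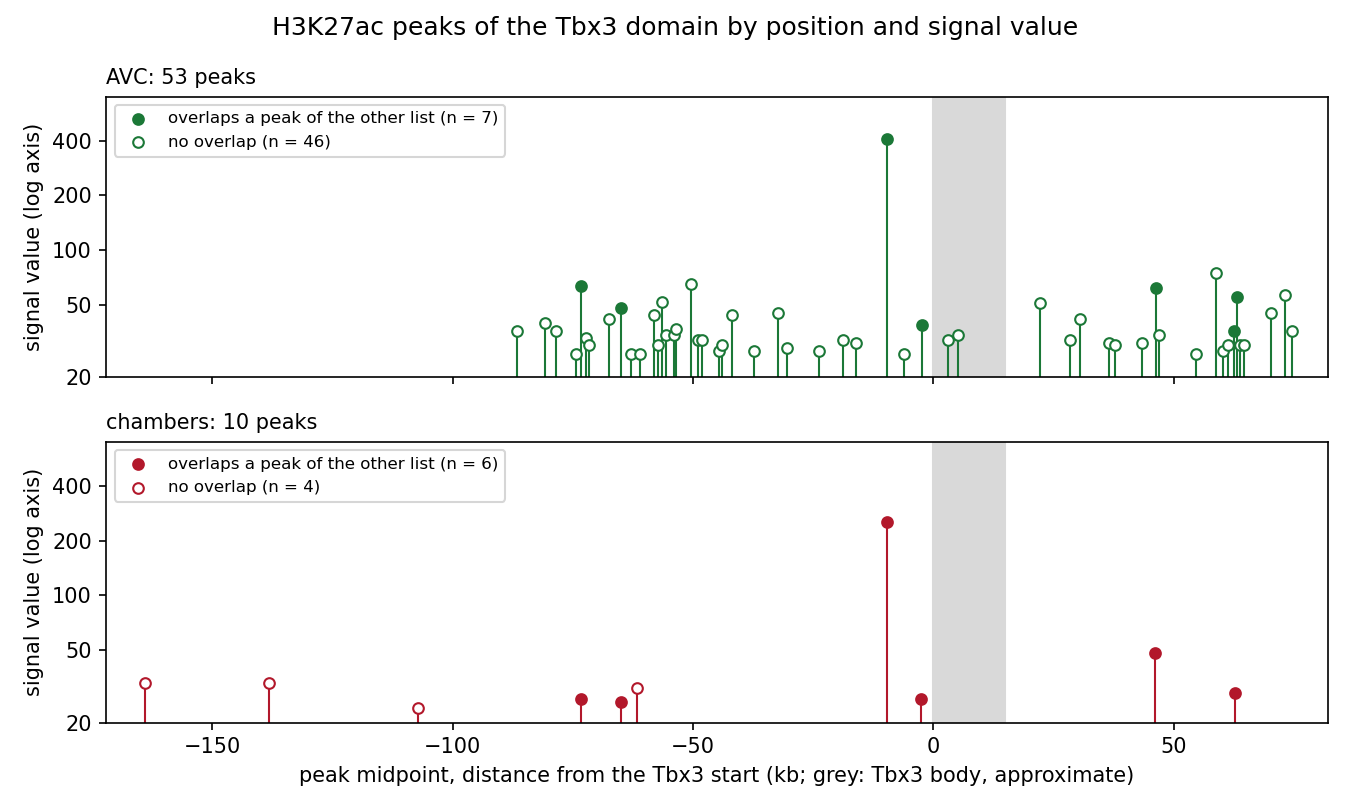
Each stem is 1 peak, placed by the distance of its midpoint from the approximate Tbx3 start (kb) and drawn to its signal value on a log axis, with AVC above and chambers below. The 53 AVC peaks lie between 86.8 kb upstream and 74.8 kb beyond the start. Of the 53, 46 (open circles) overlap no chamber peak, against 76.8% of the AVC list.

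The AVC peaks occupied a stretch of 161.7 kb, from 120033153 to 120194842, that ran from 86.8 kb upstream of the Tbx3 start to 74.8 kb beyond it. This stretch held all 53 AVC peaks and 7 of the 10 chamber peaks. On its upstream side no AVC peak was called for 98.4 kb, from 119934785 to 120033152, while 3 chamber peaks lay there. On its far side no AVC peak was called for 47.6 kb, from 120194843 to 120242475, and no chamber peak either. By number, gaps at least as long as these made up 5.32% and 15.3% of all gaps between adjacent AVC peaks on the autosomes. Such long gaps hold a larger share of the bases, which was not computed. The median gap between AVC peaks of the interval was 1.73 kb, against 10.8 kb over the AVC list, a difference that goes with their density. The regulatory DNA that drives either reporter, and whether a reporter carries extra copies of Tbx3 flanking sequence, is not stated in the labels. The lists hold no copy number or input signal for this stretch, so a part of either in these counts was not tested.

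Most peaks lay in the flanks, which are also the longer segments. Upstream of Tbx3, over 170 kb, there were 32 AVC peaks and 8 chamber peaks, or 1.88 and 0.471 peaks per 10 kb. Over the 65 kb downstream there were 19 AVC and 2 chamber peaks, or 2.92 and 0.308 per 10 kb. Within the gene body, about 15 kb long, 2 AVC peaks, or 1.33 per 10 kb, and no chamber peak were called. The AVC peaks of the body lay in its early part, from 120122883 to 120123182 (300 bp, signal value 32) and from 120124902 to 120125324 (423 bp, value 34). They were followed by the longest AVC gap between peaks of the interval, 16.6 kb from 120125325 to 120141948, which takes in the remainder of the gene.

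Neither list had a strong peak within 5 kb of the gene start. The signal value is the whole number that the authors deposited for each peak, and the score is their caller's Log(ER), set within each chromosome. Neither is scaled between lists, and depth is unknown. On chromosome 5 the lowest value in each list was 27 (AVC) and 24 (chambers). The nearest peaks upstream of the start formed an overlapping pair, 2.13 kb away at its nearest edge, with an AVC peak from 120117317 to 120117865 of value 39 and score 3.53, and a chamber peak from 120117282 to 120117642 of value 27 and score 2.51. By score they were at percentiles 76.9 (AVC) and 35.9 (chambers) of their list on chromosome 5. No peak of either list covered the approximate start itself, which shows that none was called there and not that the promoter lacked acetylation.

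**Figure D2:**
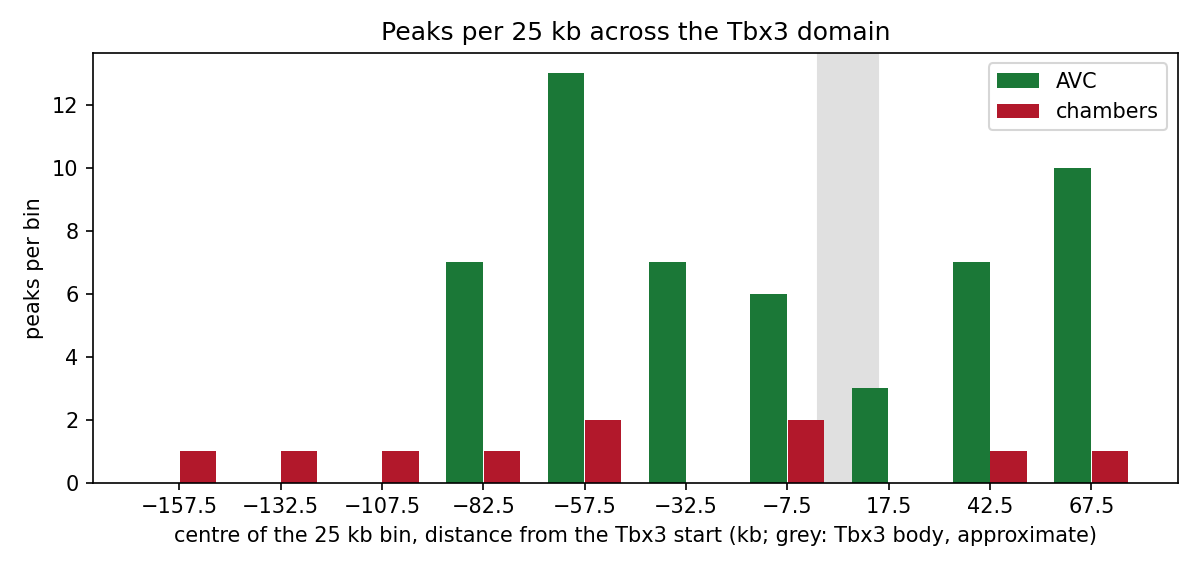
Peaks per 25 kb bin, placed by the distance of the bin's centre from the approximate Tbx3 start (kb), with AVC bars left of chamber bars. AVC counts reach 13 in the bin from 70 to 45 kb upstream and 10 in the bin from 55 to 80 kb beyond the start, and chamber counts are 0 to 2 in every bin.

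The AVC peaks had 1 concentration on each side of the gene. In 25 kb bins the densest ran from 120050001 to 120075000, upstream, with 13 AVC and 2 chamber peaks. The next was the last of the interval, from 120175001 to 120200000, with 10 AVC peaks and 1 chamber peak. The 3 bins from 119950001 to 120025000 had no AVC peak and 1 chamber peak each, so in those bins the order was turned round, on single peaks.

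Neighbouring AVC peaks often lay close together. With gaps under 1 kb joined, the 53 AVC peaks fell into 34 groups, of which 9 held more than 1 peak and together 28 peaks. Of the 52 gaps between AVC peaks, 19 (36.5%) were under 1 kb, against 13.9% over the AVC list. Short gaps go with a high density, for which the interval was chosen, and spacing apart from density was not tested. Among the 9 gaps between chamber peaks none was under 1 kb, against 21.9% over the chamber list. The longest AVC group had 7 peaks over 6.45 kb, from 120178391 to 120184836 in the downstream flank. Upstream, groups of 4 peaks spanned 3.30 kb from 120045374 and 2.98 kb from 120061544. Gaps of under 100 bp numbered 6, the smallest 12 bp, so the number of peaks is not a number of separate enhancers.

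Most AVC peaks of the interval were modest in strength. Their signal values ran from 27 to 408 with a median of 34, against a median of 32 for AVC peaks of chromosome 5. Scores had a median of 2.90, against 2.66 on the chromosome. Of the 53, 5 sat at 27, the lowest AVC value called on chromosome 5, against 563 of the 4342 AVC peaks of the chromosome. A score of at least 5 was reached by 9 (17.0%), against 9.95% of the AVC list. Chamber values ran from 24 to 252 with a median of 30, against 29 on the chromosome, and 2 of the 10 chamber peaks had a score of at least 5, against 18.1% of the chamber list. The chamber count thus lay near its background, and the AVC excess rests on a small count.

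A narrow peak stood apart from the others in both tissues. It lay about 9.6 kb upstream of the Tbx3 start, at 120110384 to 120110499 in the AVC (116 bp, value 408, score 26.30) and at 120110284 to 120110530 in the chambers (247 bp, value 252, score 27.25). It made up 17.2% of the summed signal values of the AVC peaks and 47.5% of those of the chamber peaks. The next highest values were 75 (AVC) and 48 (chambers). Peaks under 300 bp with a score of at least 10 numbered 2057 in the AVC list and 1819 in the chamber list, and 99.9% of each were called in both. The interval held 1 of them per list, and without it 8 of 52 AVC peaks (15.4%) and 1 of 9 chamber peaks (11.1%) had a score of at least 5. With such peaks left out of the whole lists too, the shares there were 7.79% (AVC) and 15.8% (chambers).

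**Figure D3:**
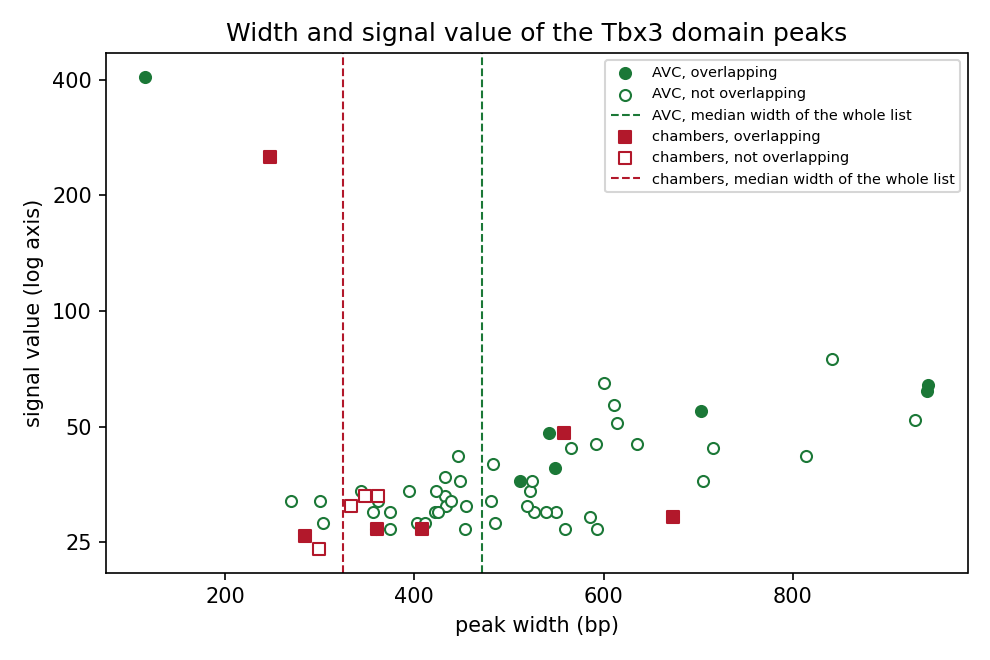
Width (bp) against signal value (log axis) of the 53 AVC peaks (circles) and 10 chamber peaks (squares), filled where they overlap a peak of the other list, with the median width of each whole list as a dashed line. The widest AVC peaks also have high values, and the narrow peak with values of 408 (AVC) and 252 (chambers) stands apart.

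Widths followed the lists as a whole. AVC peaks of the interval had a median width of 485 bp (116 to 943), against 472 bp in the AVC list. Chamber peaks had a median of 354.5 bp (247 to 673), against 325 bp in the chamber list. Widths of at least 500 bp were found in 26 of 53 AVC peaks (49.1%, background 41.8%) and in 2 of 10 chamber peaks (background 13.3%). The 5 widest AVC peaks measured 943, 942, 929, 841 and 814 bp, and they lay in both flanks. The peak of 814 bp ran from 120150088 to 120150901, with a value of 42.

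The strongest regions called in the AVC alone lay on both sides of the gene. The highest was a peak of 841 bp from 120178391 to 120179231, about 58.8 kb beyond the Tbx3 start, with a value of 75 and a score of 8.91. The nearest chamber peak was 3208 bp away. Among the 3340 AVC peaks of chromosome 5 without chamber overlap it ranked 7 by score. It opens the group of 7 peaks described above.

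Of the others, the peak from 120069375 to 120069974, about 50.3 kb upstream, had a value of 65, a score of 7.30 and rank 22 in that class, with the nearest chamber peak 10882 bp away. The peak from 120192832 to 120193442, about 73.1 kb beyond the start, had a value of 57 and rank 45. Ranks 77 and 88 went to the peak from 120063153 to 120064081 (value 52) and the peak from 120141949 to 120142562 (value 51). The last of these lies downstream of the gene and 23195 bp from the nearest chamber peak. With these, 5 of the 46 AVC peaks without overlap (10.9%) had a score of at least 5, against 3.18% of all 67248 AVC peaks without overlap.

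Few AVC regions had a chamber counterpart, whereas by an overlap of at least 1 bp most of the few chamber regions had one in the AVC. An overlap of at least 1 bp with a chamber peak was found for 7 of 53 AVC peaks (13.2%, exact Clopper-Pearson 95% interval 5.48 to 25.3), against 23.2% of the AVC list. An overlap with an AVC peak was found for 6 of 10 chamber peaks (60.0%, 26.2 to 87.8), against 31.6% of the chamber list. Each interval includes the share of its whole list, so neither count is set apart from that share. These intervals cover counting error only and take peaks as independent, which close neighbours are not. The lists are of unequal length here, which by itself lowers the AVC share and raises the chamber share. With neighbours within 1 kb counted, the numbers were 14 of 53 AVC peaks, against 32.9% of the AVC list, and 7 of 10 chamber peaks, against 47.6% of the chamber list. With an overlap of 50% of both peaks required, they were 4 of 53 AVC peaks and 4 of 10 chamber peaks, so the chamber majority was lost. A stricter rule can only lower such counts, and the whole-list shares under it are not given here.

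**Figure D4:**
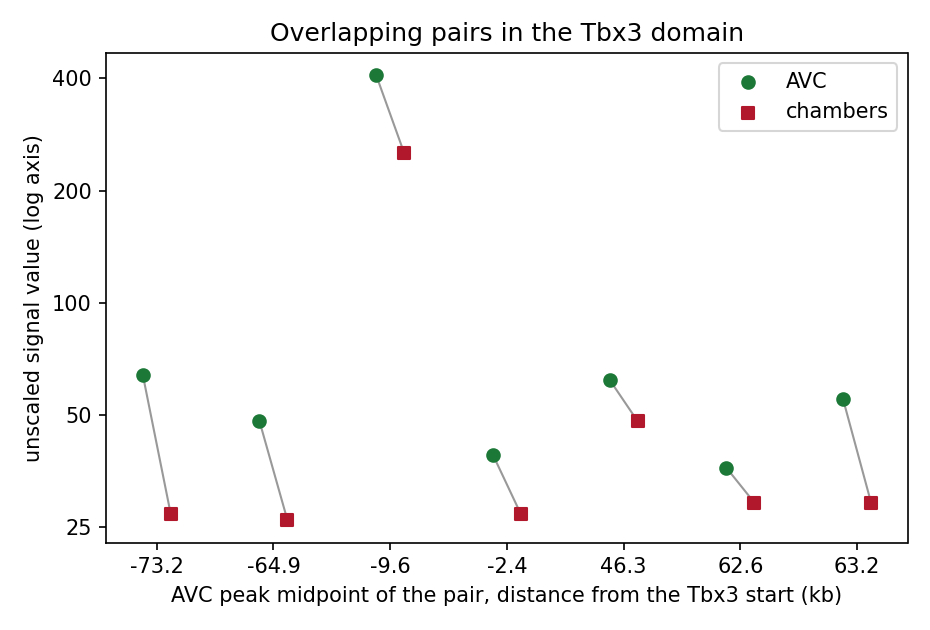
Unscaled signal values (log axis) of the 7 overlapping pairs, AVC (circles) left of chambers (squares), labelled by the distance of the AVC midpoint from the approximate Tbx3 start (kb). The AVC value is the higher in each pair, and the last 2 pairs share 1 chamber peak.

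The chamber peaks that overlapped AVC peaks formed 7 pairs, and the AVC value was the higher in all 7. Over all 22319 overlapping pairs of the lists the AVC value was the higher in 58.0%, so a majority is the background. By score the AVC peak was the higher in 6 of 7 pairs, against 46.6% of all pairs, and the exception was the narrow peak, with 26.30 in the AVC against 27.25 in the chambers. The AVC-to-chamber ratio ran from 1.24 to 2.37 with a median of 1.62, against a median of 1.11 over all pairs. Where both peaks measured at least 300 bp, the AVC value was the higher in 5 of 5 pairs, against 44.4% of such pairs in the lists. These ratios are of unscaled values, and the 2 pairs at 120182440 to 120183112 share their chamber peak. Apart from chamber values of 252 and 48, the chamber peaks of the pairs had values from 26 to 29. The lowest values called on chromosome 5 were 24 (chambers) and 27 (AVC), so most of these ratios have a chamber value near the lowest called.

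The largest ratio was at the peak from 120046304 to 120047246, about 73.2 kb upstream. It had a value of 64 over 943 bp in the AVC, against 27 over 408 bp in the chambers, where the peak lay wholly inside the AVC peak. Its ratio of 2.37 was at percentile 96.3 of all pairs. The peak from 120054846 to 120055387 had a value of 48 over 542 bp in the AVC, against 26 over 284 bp in the chambers, again wholly inside. About 46.3 kb beyond the start, the AVC peak from 120165820 to 120166761 had a value of 62 over 942 bp, against 48 over 558 bp in the chambers. That chamber peak, with a score of 5.87, was the strongest in the interval after the narrow one. The chamber peak from 120182440 to 120183112, with a value of 29, bridged 2 AVC peaks of the downstream group. They lay at 120182325 to 120182836 (value 36) and 120182859 to 120183561 (value 55, score 5.75).

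Chamber peaks without AVC overlap numbered 4 of 10, against 68.4% of the chamber list. Their median value was 32, against 28 for the 6 that overlapped. Over the whole chamber list the order was the reverse, with medians of 28 without overlap and 37 with it. The medians in the interval rest on 4 and 6 peaks, and its highest chamber values, 252 and 48, were both among those that overlapped. Of the 4 in the interval, 3 lay at 119955872 to 119956219 (value 33), 119981648 to 119982009 (value 33) and 120012573 to 120012871 (value 24). The value of 24 was the lowest chamber value called on chromosome 5. The fourth lay at 120058160 to 120058492 (value 31). The first 3 lay in the stretch without AVC peaks, 20.3 to 46.9 kb from the nearest one. The fourth was 298 bp from an AVC peak of value 27, the lowest AVC value called on chromosome 5, inside the densest AVC bin.

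**Figure D5:**
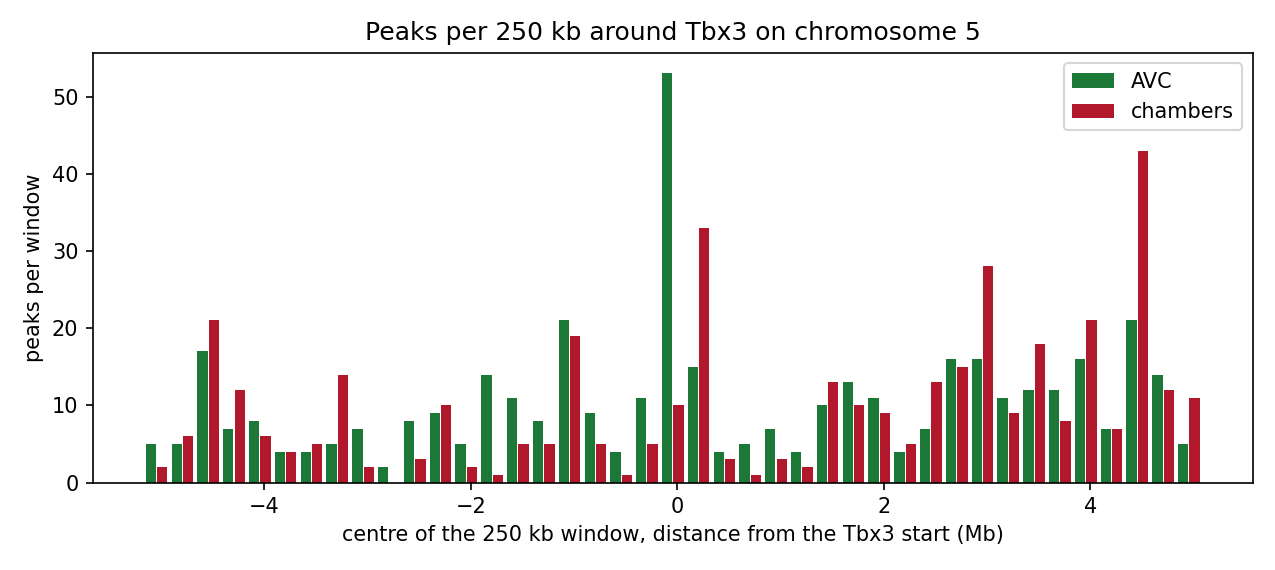
Peaks per 250 kb window on chromosome 5, placed by the distance of the window's centre from the approximate Tbx3 start (Mb), with AVC bars left of chamber bars. The Tbx3 window holds 53 AVC and 10 chamber peaks, and the window after it 15 AVC and 33 chamber peaks.

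The neighbouring windows held fewer AVC peaks. The 250 kb before the interval held 11 AVC and 5 chamber peaks, and the 250 kb after it, towards Tbx5, held 15 AVC and 33 chamber peaks. In that following window 9 of 15 AVC peaks overlapped the other list, against 23.2% of the AVC list, and 12 of 33 chamber peaks did (36.4%), which is near the 31.6% of the chamber list. A score of at least 5 was reached by 1 AVC peak (6.67%, background 9.95%) and 13 chamber peaks (39.4%, background 18.1%). At the borders, the last peaks inside were an AVC peak of value 36, 5.42 kb from the end, and a chamber peak of value 29, 17.2 kb from it. The peaks just outside were an AVC peak of value 45 at 42.8 kb and a chamber peak of value 51 at 44.3 kb. On the upstream side the nearest outside peaks lay 15.6 kb (AVC, value 33) and 63.2 kb (chambers, value 35) from the border.

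Set beside the autosomes, the interval stood much higher by AVC peaks than by chamber peaks. Among 9221 windows of 250 kb on the same grid with at least 1 peak, it ranked 23 by AVC peaks and 2125 by chamber peaks. Of these windows 73.9% held fewer chamber peaks, and the median window held 7 AVC and 4 chamber peaks. By the excess of AVC over chamber peaks, 43 here, it ranked 2, the highest being 44. Among the 2836 windows with at least 20 peaks in all, its AVC share ranked 34.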

How the data were processed

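Fixed, sorted cells went through ChIP with an antibody to H3K27ac and SOLiD sequencing, per the labels' protocols. Bowtie, SAMtools and the mm9 build are named in the submitters' processing notes, with no versions. Per the file headers, OccuPeak 1.3 called the peaks of each library by chromosome, with its Log(ER) threshold at 2, reads of 50 bases and fragments modelled at 60.5 bp (AVC) or 68 bp (chambers). The score deposited by the authors is this Log(ER), whose log base is not given. The signal value deposited by the authors is a whole number that the headers do not name. Use of a control library and pooling of material are not stated in the labels. Sequencing depth is unknown.

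Starts were converted from 0-based to 1-based positions. Overlap of at least 1 bp was counted and checked with bedtools 2.31.1 and on simulated intervals. The peaks named are all chamber peaks, the 10 AVC peaks of highest score, the 5 widest, and those nearest to or within Tbx3. The other peaks printed were chosen after their values were seen. The interval and all lists were chosen with earlier results of these data known. Planned checks of marker and target genes were not run, because no mm9 annotation was used here, and no peak sequence is printed for want of an mm9 genome. Analyses used Python 3.11.15, pandas 2.3.3, scipy 1.17.1 and matplotlib 3.10.9.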

Additional observations from a re-analysis of the deposited data

How the results depend on the processing

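The AVC share, for which the interval was chosen, stayed between 81.8% and 87.9% under the 6 alternatives run for it. With scores of at least 3 there were 23 AVC and 5 chamber peaks, 2 of each overlapping, and the AVC median width was 600 bp. With scores of at least 5 there were 9 AVC and 2 chamber peaks, 2 of each overlapping, with median widths of 703 and 402.5 bp. These lists are shorter by construction, and whole-list overlap shares at these scores are not given here. With the interval narrowed by 50 kb on each side, 6 chamber peaks were left and 4 AVC peaks overlapped. Counting neighbours within 1 kb, 14 of 53 AVC peaks had a chamber counterpart, against 32.9% of the AVC list. Requiring 50% of both peaks left 4 AVC peaks and 4 chamber peaks, with no whole-list share beside them. The other 27 of 42 values had equal peak numbers, peaks of at least 300 bp and any overlap with the interval among their settings. Counts among them moved by at most 1.5 times, shares within the binomial interval (72.7 to 92.1, too narrow for neighbouring peaks) and widths within their quartiles. Chamber peaks that overlapped an AVC peak reached that limit. They fell from 6 to 4 with peaks of at least 300 bp, with the narrowed interval and with 50% of both peaks. No paired analysis was possible because AVC and chambers had 1 library apiece. The unknown depth and the lack of an input library here limit what a missing peak shows, and the median AVC value, 34, was close to the lowest called on the chromosome, 27.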
